A study of Mus musculus with 4 samples.

Results

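The genes described here code for proteins of the red cell membrane and surface, for the receptor through which red cell precursors receive erythropoietin, and for the carbonic anhydrase of the red cell cytoplasm. They were measured in mouse embryos that lack nucleoredoxin, a thioredoxin-related protein encoded by Nxn, and in wild-type embryos. The 8 genes are Slc4a1, Epb42, Rhag, Rhd, Ermap, Ank1, Epor and Car2. They were chosen by name, with earlier results of these data known, and every probe for them outside the control spots was taken. Their counts beside the shares of all probes are therefore a description and not an independent test. The probes of the 8 genes number 13 of the 41174 gene probes on the array. Epb42 is listed in the files under its older symbol Epb4.2 and was matched by its transcript accession. Of the 13 probes, 11 passed the filter on dim spots, so that each gene had at least 1 tested probe, and 2 probes of Ank1 did not pass.

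The labels give 4 groups, all C57BL/6J, by genotype (NRX -/-, called Nxn-null here, and NRX +/+, wild type) and embryonic day (E9.5 or E11.5). The sample titles write KD for the Nxn-null RNA. On each of 4 two-colour arrays, 1 channel read Nxn-null and the other wild-type RNA from embryos of equal age, with 2 arrays a stage and the dyes exchanged between them (replicate 1 has the Nxn-null RNA in Cy5, replicate 2 in Cy3). The null allele, the number of embryos and any pooling are not given in the sources used here, and whether a stage's arrays held separate RNA extracts is not stated. P-values at a stage therefore concern only the RNAs hybridised, and the spread behind them may be technical. The fit holds a dye term, which takes up any gap between replicates 1 and 2 that both stages share. These p-values thus do not measure the SD of 2 arrays printed beside a ratio. For 1 Ank1 probe at E9.5 that SD was 1.07, while the moderated SE of the fit was 0.11.

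A red cell precursor builds its membrane on a spectrin network that is held to the lipid bilayer by anchoring complexes. Band 3, the product of Slc4a1, is the anion exchanger at the centre of the main complex. Ankyrin-1 (Ank1) ties band 3 to spectrin, the Epb42 protein joins band 3 to ankyrin, and the Rh proteins Rhag and Rhd sit in the same assembly. In the mouse embryo the first red cells arise in the blood islands of the yolk sac and enter the circulation around the earlier of the stages studied here, and the fetal liver later becomes the main site of red cell production.

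Between 48.2% and 70.3% of gene probes were well above background in a channel, and no probe of the 8 genes was saturated. Both Nxn probes read lower for Nxn-null than for wild-type RNA on each array, with log2 ratios from -1.42 to -0.77; the labels do not place them relative to the disrupted part of the gene. The RNAs of the genotypes also differed in other ways. At E9.5, all 9 of 9 markers of yolk sac visceral endoderm were lower in the Nxn-null RNA (median log2 ratio -3.07), and their summed intensity was 14840 to 18547 in the Nxn-null and 156011 to 157585 in the wild-type channels, while 8 of the 9 were still well above background in both Nxn-null channels. At E11.5, 2 of the same 9 markers were lower, Apob at -0.61 and Apoa1 at -0.26, the median was -0.08, and the sums were 75529 to 76445 against 75410 to 83123. Afp made up most of these sums, with log2 levels of 15.98 and 15.96 in the Nxn-null channels. From E9.5 to E11.5 each of the 9 markers fell in wild type. In the Nxn-null RNA, Cubn, Amn, Rhox5 and Lrp2 fell as well, while the other markers rose, Afp by 2.64 on the log2 scale. At E11.5, however, the Y-linked genes Ddx3y, Eif2s3y and Kdm5d read well above background for wild type but never for the Nxn-null channels, whereas at E9.5 they were so in neither. Of the probes called at a stage, 60.5% were lower at E9.5 and 62.7% at the later stage. These shares moved to 75.6% at E9.5 with the processed signals of the scanner software, and to 77.6% and 46.2% with median centring.

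Each of the 8 genes had at least 1 probe lower in the Nxn-null RNA at both stages. By limma with a dye term, 10 of the 11 tested probes were lower at E9.5 and at E11.5 at an adjusted p under 0.05, against 13.5% of all 24985 tested probes at E9.5, 5.31% at E11.5 and 2.91% at both stages. The median log2 ratio of the 11 probes was -0.46 at the earlier and -0.62 at the later stage, while that of all tested probes was 0.00 and 0.01. The remaining probe, the third of Ank1 in order of brightness, was higher at E9.5, as were 8.8% of all tested probes, and was not called at E11.5. A mean log2 ratio under -0.5 was reached by 4 of the 11 probes at E9.5 and by 9 at E11.5, against 3.2% and 0.945% of all tested probes. The same 10 probes were lower on all 4 arrays, as were 10.6% of all tested probes. The levels of the genotypes did not overlap for these 10 probes at either stage, which at E9.5 was so for 21.8% and at E11.5 for 16.1% of all probes. The ratios of these 10 probes stayed below 0 at both stages under each of the alternatives that gave a value.

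The number of calls changed with the processing. Without the dye term, 3 of the 11 probes were called at E9.5 (Rhd, Epor and the brightest Ank1 probe) and 1 at E11.5 (Slc4a1). With the processed signals of the scanner software the counts were 5 and 0, and with median centring in place of loess they were 2 and 6. Calls over all 24985 tested probes fell as well, from 5564 at E9.5 and 2118 at E11.5 with the main processing. They were 540 and 50 without the dye term, 1296 and 0 with the processed signals, and 919 and 299 with median centring. A fit on 3 arrays leaves no degree of freedom for the dye term and was run without it, so these counts reflect both changes. At E9.5 it called 1 probe without E9.5 replicate 1 and 1 (the higher Ank1 probe) without E9.5 replicate 2. Leaving out replicate 1 of E11.5 gave 2 and leaving out its replicate 2 gave 1. At E11.5 the counts were 6, 8, 0 and 0 in the same order. The genotype effect tested over the 2 stages, which are its only replicates, was called for none of the 11 probes nor for any probe of the array. Its adjusted p by limma lay between 0.342 and 0.812, and 10 of the 11 probes had an unadjusted p under 0.05, as did 5.52% of all probes in the same direction.

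**Figure D1:**
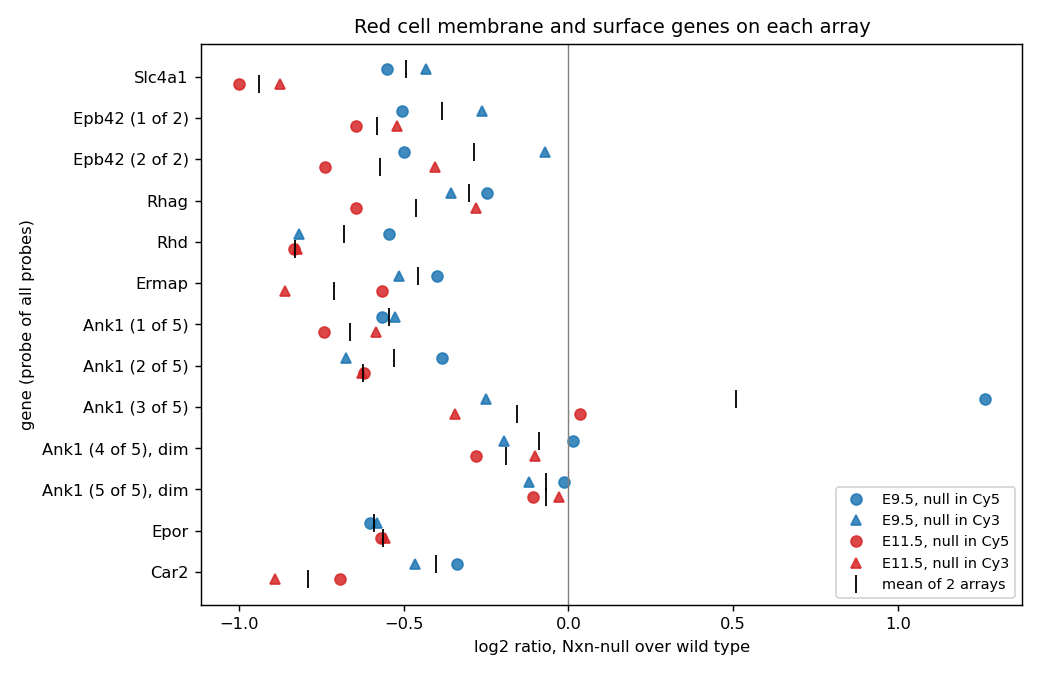
Log2 ratio of Nxn-null over wild type (x axis) for each of the 13 probes (rows; dim, did not pass the filter) on each array. Colour gives the stage, shape the dye of the Nxn-null RNA, and the black tick the mean of 2 arrays. All 8 genes have points left of 0 on the 4 arrays, and the third Ank1 probe stands at 1.26 on 1 array.

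Promoter sequences are shown because the 8 genes had lower probes at both stages. The RefSeq table (GRCm38.p6) gives windows of 300 bases, from 250 before to 50 after an annotated start, for 5 of them: Epb42, Rhag, Rhd, Ermap and Epor. They were searched on both strands for the letters AGATAA and TGATAA, which hold the core read by GATA factors, and for CCACCC, a core read by Krüppel-like factors; Gata1 and Klf1 are the erythroid members of these families. AGATAA or TGATAA occurred in all 5 windows and in 18.6% of all 32851 windows of the table. CCACCC occurred in 3 of the 5 and in 31.5% of all windows, and both kinds together in 3 of the 5 and in 4.39% of all. No matches overlapped each other in these 5 windows. A match only describes the letters and is not a shown binding site, and the genes were chosen as red cell genes. Below, 5′ to 3′ in the direction of the gene, capitals mark the matches on either strand. The windows shown are those whose GATA-type match lies nearest the start: Rhag at chr17:40810899-40811198 on the plus strand, Rhd at chr4:134864286-134864585 on the plus strand, Ermap at chr4:119189946-119190245 on the minus strand and Epor at chr9:21963527-21963826 on the minus strand.
Rhag: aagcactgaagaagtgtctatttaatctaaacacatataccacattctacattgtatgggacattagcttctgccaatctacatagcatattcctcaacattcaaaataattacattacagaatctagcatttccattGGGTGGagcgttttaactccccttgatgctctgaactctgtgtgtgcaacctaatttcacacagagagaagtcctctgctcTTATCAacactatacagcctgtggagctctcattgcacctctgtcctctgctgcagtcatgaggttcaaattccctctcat
Rhd: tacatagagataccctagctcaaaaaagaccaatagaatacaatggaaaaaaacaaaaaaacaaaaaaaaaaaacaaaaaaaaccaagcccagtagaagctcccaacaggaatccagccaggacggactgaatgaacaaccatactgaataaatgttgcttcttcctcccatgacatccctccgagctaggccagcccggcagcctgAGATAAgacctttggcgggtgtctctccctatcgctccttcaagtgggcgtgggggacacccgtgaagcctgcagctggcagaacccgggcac
Ermap: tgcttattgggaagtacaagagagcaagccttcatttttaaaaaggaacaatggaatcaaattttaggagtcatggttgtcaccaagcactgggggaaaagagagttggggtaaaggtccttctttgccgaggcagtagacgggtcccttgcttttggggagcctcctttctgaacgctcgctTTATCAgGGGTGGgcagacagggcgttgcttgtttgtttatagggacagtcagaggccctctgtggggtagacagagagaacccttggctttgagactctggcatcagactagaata
Epor: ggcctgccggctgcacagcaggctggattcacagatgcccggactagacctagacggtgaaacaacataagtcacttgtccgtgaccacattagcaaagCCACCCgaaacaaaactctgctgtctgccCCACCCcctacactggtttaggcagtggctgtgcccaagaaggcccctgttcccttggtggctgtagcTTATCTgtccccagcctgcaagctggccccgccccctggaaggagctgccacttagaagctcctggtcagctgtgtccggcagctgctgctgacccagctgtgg
Counted from the start, the GATA-type match began at -31 in Rhag, -43 in Rhd, -67 in Ermap and -54 in Epor. The Ermap window holds a CCACCC match close by, beginning at -60, Rhag holds one at -112, and Epor holds 2 at -151 and -122. In Epb42, whose window is not printed, the AGATAA match began at -226.

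Slc4a1, which encodes band 3, had the lowest ratio of the 11 probes at E11.5. At E9.5 its normalized log2 level was 11.85 and 11.80 in the Nxn-null and 12.40 and 12.24 in the wild-type channels (replicates 1 and 2). At E11.5 it was 13.13 and 13.11 in the Nxn-null and 14.14 and 13.99 in the wild-type channels. The wild-type channels were higher on each array, and the groups did not overlap at either stage. The log2 ratio was -0.49 ± 0.08 at E9.5 (SD, n = 2 arrays; limma adjusted p = 7.1e-06), or 71.1% of the wild-type level. At E11.5 it was -0.94 ± 0.09 (limma adjusted p = 3.02e-09), or 52.2% of the wild-type level.

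Epb42, whose product joins band 3 to ankyrin and resembles a transglutaminase without its activity, has 2 probes. The brighter one stood at 7.58 and 7.77 in the Nxn-null and 8.09 and 8.03 in the wild-type channels at E9.5, and at 8.02 and 8.26 against 8.66 and 8.78 at E11.5. Its log2 ratio at E9.5 was -0.38 ± 0.17, and at E11.5 it was -0.58 ± 0.09 (SD, n = 2 arrays; limma adjusted p = 1.52e-04 and 2.35e-06). The dimmer probe had -0.29 ± 0.30 and -0.57 ± 0.24 (limma adjusted p = 0.00249 and 2.79e-06). Both probes were lower at both stages, with 66.8% and 67.3% of the wild-type level at E11.5, but the dimmer one came close to 0 on 1 array, at -0.07 on E9.5 replicate 2. Over the alternatives tried, the E11.5 ratio ranged from -0.98 to -0.52 for the brighter probe and from -0.97 to -0.40 for the dimmer one. The size of the ratio is therefore uncertain.

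Ank1, the anchor between band 3 and spectrin, has 5 probes, and they did not read alike. The 2 brightest were lower at both stages. The first of them was 9.45 and 9.46 in the Nxn-null and 10.01 and 9.98 in the wild-type channels at E9.5, and 10.67 and 10.82 against 11.42 and 11.40 at E11.5. Its ratio was -0.55 ± 0.03 and -0.66 ± 0.11, and that of the second was -0.53 ± 0.21 and -0.62 ± 0.00 (SD, n = 2 arrays). Limma adjusted p-values were 2.22e-06 and 4.21e-07 for the first and 6.34e-06 and 1.87e-06 for the second. The third probe had a ratio of 1.26 on E9.5 replicate 1, where its wild-type level was 6.52, and of -0.25 on E9.5 replicate 2, where that level was 7.67. Its mean of 0.51 was called higher at E9.5 (limma adjusted p = 0.00233), but it turned to -0.25 without E9.5 replicate 1 and to -0.90 with the processed signals of the scanner software. At E11.5 it was at 0.03 and -0.34. With the mean of the 3 tested probes, the E9.5 ratio of Ank1 was -0.19 and was not called (limma adjusted p = 0.121). The 2 dimmest Ank1 probes were well above background in at most 1 of the 2 channels of a group, and their ratios lay between -0.28 and 0.01. All 5 probes carry the same transcript accession in the files, so the values do not tell which Ank1 transcripts each one reads.

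Rhag and Rhd encode the Rh proteins of the red cell surface. Rhag is the glycoprotein that the complex needs to reach the membrane, and Rhd is the mouse gene related to the human Rh blood group genes. Rhd was 9.14 and 9.15 in the Nxn-null and 9.68 and 9.97 in the wild-type channels at E9.5, and 11.29 and 11.39 against 12.12 and 12.21 at E11.5. Its ratio was -0.68 ± 0.19 at E9.5, the lowest of the 11 probes at that stage, and -0.83 ± 0.01 at E11.5 (SD, n = 2 arrays; limma adjusted p = 2.24e-07 and 3.75e-08). The Nxn-null level was 62.4% and 56.3% of the wild-type level, and the genotypes did not overlap.

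Rhag had the ratio nearest 0 at E11.5 among the 10 lower probes. It was 7.50 and 7.36 in the Nxn-null and 7.75 and 7.71 in the wild-type channels at E9.5, and 7.84 and 8.06 against 8.49 and 8.34 at E11.5. Its ratio at E9.5 was -0.30 ± 0.08, and at E11.5 it was -0.46 ± 0.26 (SD, n = 2 arrays; limma adjusted p = 0.00562 and 2.23e-04). The Nxn-null level at E9.5 was well above background on 1 of 2 arrays, so that the size of the ratio there is uncertain. With the processed signals the Rhag ratios were further from 0, at -0.77 and -0.79, and neither was called. Whether Rhag and Rhd differ in their ratios was not tested.

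Ermap encodes an immunoglobulin-family protein of the erythroid membrane that carries the Scianna blood group in humans. It was 8.55 and 8.58 in the Nxn-null and 8.95 and 9.09 in the wild-type channels at E9.5, and 9.87 and 9.72 against 10.44 and 10.58 at E11.5. The ratio at E9.5 was -0.46 ± 0.08, and at E11.5 it was -0.71 ± 0.21 (SD, n = 2 arrays; limma adjusted p = 2.5e-05 and 1.9e-07), or 72.9% and 61.0% of the wild-type level. No Nxn-null level reached a wild-type level of the same stage.

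Epor, the erythropoietin receptor, which keeps red cell precursors alive and dividing, had nearly the same ratio on each array. The 4 log2 ratios were -0.60, -0.58, -0.57 and -0.56. Its levels were 10.04 and 10.16 in the Nxn-null and 10.64 and 10.74 in the wild-type channels at E9.5, and 11.34 and 11.31 against 11.91 and 11.87 at E11.5. The Nxn-null level was thus 66.4% of the wild-type level at E9.5 and 67.7% at E11.5 (limma adjusted p = 6.75e-07 and 3.13e-06). The difference between the stages was 0.03 ± 0.09 on the log2 scale (moderated SE; limma adjusted p = 0.895).

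Car2, the cytosolic carbonic anhydrase that hydrates carbon dioxide, is abundant in red cells and is also made in other tissues. It was 11.64 and 11.56 in the Nxn-null and 11.97 and 12.02 in the wild-type channels at E9.5, and 12.94 and 12.87 against 13.63 and 13.76 at E11.5. The groups did not overlap at either stage. The ratio at E9.5 was -0.40 ± 0.09, and at E11.5 it was -0.79 ± 0.14 (SD, n = 2 arrays; limma adjusted p = 8.33e-05 and 3.27e-08). The Nxn-null level was 75.7% of the wild-type level at the earlier and 57.8% at the later stage.

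Levels rose from E9.5 to E11.5 in both genotypes. By limma on the rise in each genotype, with the 2 genotypes as replicates, all 11 tested probes were higher at E11.5, as were 19.5% of all tested probes. Because the genotypes shared arrays, these p-values are too small. Rhd rose the furthest, by 2.34 on the log2 scale in wild type (5.06-fold) and by 2.19 in the Nxn-null RNA (4.57-fold; limma adjusted p = 0.00434 over both). Slc4a1 rose by 1.74 in wild type (3.34-fold) and by 1.29 in the Nxn-null RNA (2.45-fold). Car2 rose by 1.70 and 1.31, Ermap by 1.49 and 1.23, and the brightest Ank1 probe by 1.41 and 1.29. Rhag and the brighter Epb42 probe rose the least among these, with wild-type rises of 0.68 and 0.66. Both are dim, and over the alternatives tried the rise over both genotypes ranged from 0.54 to 1.20 for Rhag and from 0.49 to 0.90 for Epb42. For Epor that range was 0.78 to 1.30. Whether the rises differ between genes was not tested. Epor rose by 1.20 in wild type and 1.23 in the Nxn-null RNA, so the gap between the genotypes was about as wide at both stages.

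**Figure D2:**
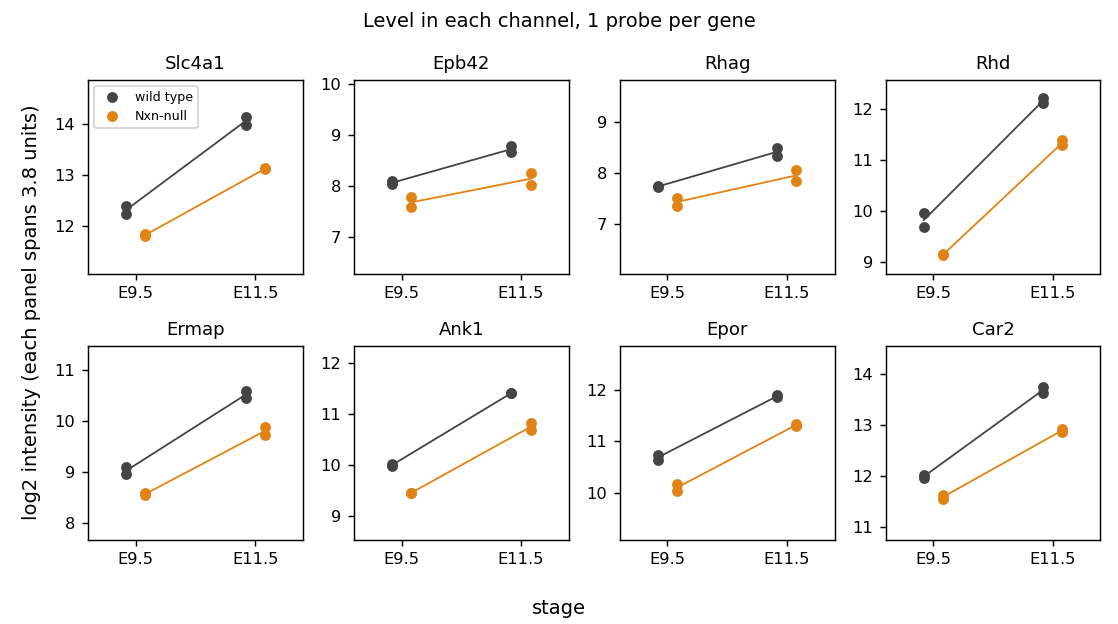
Normalized log2 intensity (y axis, each panel 3.8 units tall) at E9.5 and E11.5 in wild-type (grey) and Nxn-null (orange) channels, for the brightest tested probe of each gene. Points are arrays, lines join the means of 2, and levels may be compared within a panel but not between panels. The Nxn-null points lie below the wild-type points in each panel at both stages, and the lines for Slc4a1 and Car2 spread apart.

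The ratio differed between the stages for 4 of the 11 probes by the limma contrast of the 2 ratios, each time lower at E11.5, against 4.61% of all probes in that direction. These were Slc4a1 (-0.45 ± 0.09, moderated SE; limma adjusted p = 0.00182), Car2 (-0.39 ± 0.09; limma adjusted p = 0.00604), the dimmer Epb42 probe (-0.29 ± 0.09; limma adjusted p = 0.0445) and the third Ank1 probe (-0.66 ± 0.16; limma adjusted p = 0.00802). The brighter Epb42 probe did not pass (-0.20, limma adjusted p = 0.186), and the third Ank1 probe changed sign without E9.5 replicate 1. None of the 4 was called without the dye term, and leaving out any 1 array left 0 or 1 called. For Ermap the difference was -0.26 (limma adjusted p = 0.0800), and for Rhd, Rhag and the 2 bright Ank1 probes it lay between -0.16 and -0.09 with limma adjusted p-values from 0.380 to 0.604. The Y-linked genes differed between the genotypes at E11.5 but not at E9.5, so stage and sex cannot be told apart in these differences. The yolk sac markers differed far more at E9.5, and their part was not tested.

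Other genes of red cells were lower as well. Of 9 tested red cell markers, 8 were lower at each stage, and all 9 had ratios below 0 on all 4 arrays, but without the dye term 3 and 2 were called lower. Among genes by their brightest probe, 14.1% were called lower and 9.03% higher at E9.5, and 5.2% lower and 3.4% higher at E11.5. The marker medians were -0.60 and -1.02 at the 2 stages, and those of the 8 genes by their brightest probes were -0.47 and -0.69. Klf1, an activator of erythroid genes, stood at -0.93 and -1.49, and Alas2, the first enzyme of erythroid haem synthesis, at -0.60 and -0.84. Gata1, the erythroid transcription factor, was at -0.10 and -0.15 and was not called at either stage. The summed intensity of the markers was 262616 to 299447 in the Nxn-null and 450446 to 527012 in the wild-type channels at E9.5, and 309714 to 411444 against 799269 to 877336 at E11.5. These sums were nearly all globin (Hbb-bh1, Hbb-y, Hba-x and Hba-a1). In the Nxn-null channel of E9.5 replicate 1, for example, the log2 level was 17.10 for Hbb-bh1 and 11.55 for Alas2. In bulk RNA, fewer red cells and less of these RNAs per red cell cannot be told apart.

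Markers of some other cells differed between the genotypes as well. The yolk sac markers had medians of -3.07 at the earlier and -0.08 at the later stage. The Y-linked genes differed at E11.5, and so did Xist. Its probe with the largest ratios there read 6.07 and 5.59 on the log2 scale and was not well above background in either wild-type channel. At E11.5 the genotypes thus differed in the sex make-up of the RNAs as well, and the parts of genotype and sex in the ratios cannot be told apart. The part of the yolk sac markers in the ratios of the 8 genes was not tested. For the counts that follow, the shares over all genes by their brightest probe were 14.1% lower and 9.03% higher at E9.5. At E11.5 they were 5.2% and 3.4%. Of 6 neural markers, 4 were higher at E9.5 (median 0.40) and none was called at E11.5 (median 0.01). Of 6 megakaryocyte and platelet markers, 4 were lower and 1 higher at E9.5, and 4 were higher and none lower at E11.5 (medians -0.33 and 0.33). Endothelial markers had 1 of 8 lower at E9.5, near the share of all genes, and 1 higher at E11.5 (medians 0.00 and 0.01). None of 7 macrophage markers was called at either stage. Of 5 fetal liver hepatocyte markers, 1 was lower at E9.5 and 2 at E11.5 (medians -0.04 and 0.04). These were Fgb at E9.5 (-1.43), and Alb (-0.48) and Ahsg (-0.86) at E11.5, while Hnf4a and Ambp were not called at either stage.

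**Figure D3:**
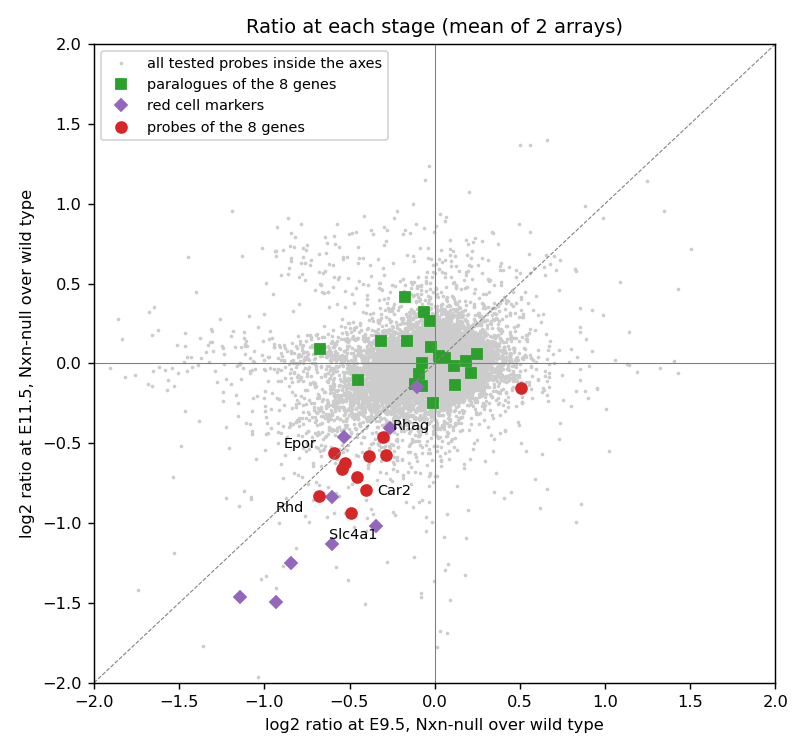
Mean log2 ratio of Nxn-null over wild type at E9.5 (x axis) against E11.5 (y axis), for all tested probes within the axes (grey), the 11 tested probes of the 8 genes (red), 9 red cell markers (purple) and 21 paralogues of the 8 genes (green). Each point is a mean of 2 arrays per stage and the dashed line marks equal ratios. Of the 11 red points, 10 lie below 0 on both axes and 1, an Ank1 probe, lies right of 0, while the paralogues spread around 0.

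The membrane skeleton list holds proteins of the spectrin network and its junctions, and like the other lists it takes each gene by its brightest tested probe. Of its 10 tested genes, 2 were lower and 2 higher at E9.5, and 5 were lower and none higher at E11.5. Among all genes by their brightest probe, 14.1% were lower and 9.03% higher at E9.5, near the shares of this list, and 5.2% were lower at E11.5. The medians of the list were -0.04 and -0.21. Sptb, erythroid beta spectrin, stood at 0.07 ± 0.17 (SD, n = 2 arrays) at E9.5, which was not called, and was lower at E11.5 (-0.37 ± 0.02). Dmtn, the actin-bundling protein dematin, stood at -0.09 at E9.5 and was lower at E11.5 (-0.44). Tmod1, which caps the short actin filaments of the skeleton and also those of muscle, was lower at both stages (-0.79 ± 0.11 and -0.25 ± 0.01). Without the dye term, 1 gene of this list was lower at E9.5 and none at E11.5, against 540 and 50 calls in either direction over all 24985 tested probes.

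Other proteins of the red cell surface were lower or not called. Of 22 tested genes, 11 were lower at E9.5 and 6 at E11.5, with none higher, and the list medians were -0.16 and -0.11. Among all genes by their brightest probe, 14.1% were lower and 9.03% higher at E9.5, and 5.2% lower and 3.4% higher at E11.5. Kel, the Kell blood group protein, was lower at both stages (-0.74 ± 0.13 and -0.995 ± 0.21; SD, n = 2 arrays), with limma adjusted p-values of 3.58e-08 and 1.59e-09. Icam4, which carries the Landsteiner-Wiener antigen in humans, was at -0.26 and -0.53, and Kcnn4, the calcium-activated potassium channel of red cells, at -0.33 and -0.49. Cd59a, an inhibitor of complement lysis, was at -0.72 and -0.34. These 4 genes were lower at both stages by limma. Without the dye term, 2 genes of this list were lower at E9.5 and none at the later stage, and none of the paralogues or erythropoietin pathway genes described next was lower at either. Over all 24985 tested probes, that fit made 540 calls at E9.5 and 50 at E11.5 in either direction.

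The paralogues of the 8 genes, most of which are known from other tissues, had list medians near 0. The exception by background is Car1, itself a red cell carbonic anhydrase, which was not called at either stage (-0.09 and -0.07). They comprise other anion exchangers, ankyrins, Rh glycoproteins, transglutaminases and carbonic anhydrases. Of 21 tested, 3 were lower and 2 higher at E9.5, and 1 was lower and 3 higher at E11.5, with medians of -0.03 and 0.03. Over all genes by their brightest probe, 14.1% were lower and 9.03% higher at E9.5, near the shares of this list. At E11.5 the shares over all genes were 5.2% lower and 3.4% higher. Car4, a membrane-bound carbonic anhydrase, was lower at E9.5 (-0.67 ± 0.28; SD, n = 2 arrays) and stood at 0.09 at E11.5. Tgm2, tissue transglutaminase, was lower at E9.5 (-0.45) and stood at -0.11 at E11.5, while another of its probes had a mean of 0.03 over the 4 arrays. Rhbg, a Rh glycoprotein of epithelia, stood at -0.06 at E9.5 and was higher at E11.5 (0.32 ± 0.02). Car9, a carbonic anhydrase induced by low oxygen, was higher at E9.5 (0.25) and stood at 0.06 at E11.5.

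The erythropoietin pathway around Epor had calls in both directions. Of 13 tested genes, 3 were lower and 1 higher at E9.5, against 14.1% and 9.03% of all genes. At E11.5, 1 was lower and 2 higher, against 5.2% and 3.4%. The medians were -0.04 and -0.01. Pim1, a kinase induced by cytokine receptors, was lower at both stages (-0.26 and -0.38). Cish, a feedback inhibitor induced through Stat5, was lower at E9.5 (-0.29) and stood at -0.04 at E11.5. Stat5b itself was lower at E9.5 (-0.20 ± 0.44; SD, n = 2 arrays), though its 2 arrays lay on either side of 0, and stood at -0.01 at E11.5. Erfe, the erythroid hormone that acts on iron regulation, stood at 0.13 at E9.5 and was higher at E11.5 (0.37 ± 0.47), but it turned to -1.08 and -0.76 with the processed signals. The ligand gene Epo did not pass the filter.

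**Figure D4:**
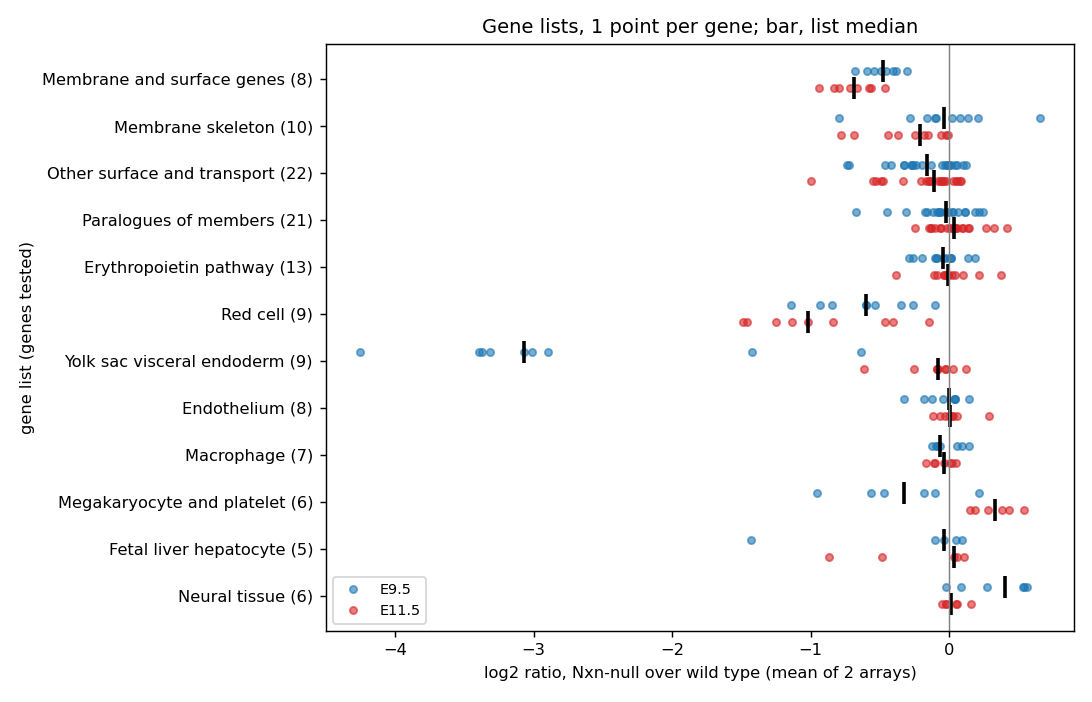
Log2 ratio of Nxn-null over wild type (x axis, mean of 2 arrays) for the genes of each list (rows, with the number tested) at E9.5 (blue) and E11.5 (red), 1 point per gene by its brightest tested probe, with a black bar at the list median. The top row shows the 8 membrane and surface genes, whose medians are -0.47 and -0.69. The yolk sac row has its E9.5 median at -3.07 and its E11.5 median at -0.08.

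Outside the 8 genes, 14330 genes with a current symbol were ranked by how near their 4 ratios lay to the mean profile of the 8 (-0.47, -0.49, -0.71 and -0.67 over E9.5 replicates 1 and 2 and E11.5 replicates 1 and 2). The measure was the root mean square difference over the 4 arrays, in log2 units. The nearest was Peg12, an imprinted gene, with a difference of 0.0742 and ratios of -0.46, -0.59, -0.62 and -0.60. Ncf4, a subunit of the phagocyte oxidase, followed at 0.0922. Fech, the enzyme that inserts iron to complete haem, and Mgst3, a microsomal glutathione S-transferase, lay at 0.107 each, and Tmem184a at 0.110. Over 4 arrays such nearness is a description only.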

How the data were processed

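RNA was compared on 4 two-colour Agilent whole mouse genome arrays. The deposited scanner files hold spot intensity in each channel, per the file headers written by Agilent Feature Extraction 9.1.3.1 (the submitters' processing notes name 9.5.3.1). All 4 headers carry 1 scan time, so no scan block could be fitted. Per the file headers, the authors' files also hold a log10 ratio of red over green processed signal, set to 0 where the software used a surrogate, so the processed signals themselves served as the alternative. The authors' deposited value table equalled the log10 ratio of those signals, turned to Nxn-null over wild type, within 0.0001 for at least 99.995% of 40929 probes. Its column medians over those probes were -0.0137, 0.0408, -0.0349 and 0.0210.

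Mean intensities were background-corrected by normexp (offset 50) and loess-normalized within arrays in limma 3.58.1 (R 4.3.3, the data.table package 1.17.8, jsonlite 2.0.0). Channel levels additionally had Aquantile normalization. Of 41174 gene probes, 302 with an outlier mark were left out, and 24985 passed as well above background in 1 genotype on both arrays of a stage. Symbols came from RefSeq GRCm38.p6: an accession named 22951 probes, a current symbol 6659 and an older one 3109, while 8455 kept their deposited name.

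Stage ratios and their difference came from a limma fit on 4 arrays with a dye term (1 residual and 18.0 prior degrees of freedom), and the effect over stages from the 2 stage averages. P-values were adjusted by Benjamini-Hochberg over all tested probes, called under 0.05. The number of arrays limits the precision. The fits were tested on simulated data with independent noise on each array and in each genotype's levels. Such data cannot show how shared RNA extracts or shared arrays affect the p-values. Figures used matplotlib 3.10.9 (Python 3.11.15).

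The 8 genes and all lists were chosen with earlier results of these data known. Named from each list were the 4 tested genes with the largest absolute mean ratio over the arrays, named as similar were the 5 nearest genes, and red cell markers were named as examples. 1 gene that this rule names is not reported here. A list gene stands for its brightest tested probe. Alternatives covered the offset, normalization, filter, probes per gene, moderation, dye term and each array left out.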

Additional observations from a re-analysis of the deposited data

Results flagged for a closer look

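The ratio at E11.5 differed from that at E9.5 by the limma test of the difference for 4 probes of the 8 genes. The difference in log2 ratio was -0.45 for Slc4a1, -0.39 for Car2, -0.29 for the dimmer Epb42 probe and -0.66 for the third Ank1 probe. Over the alternatives tried, Slc4a1 ranged from -0.51 to -0.33, Car2 from -0.49 to -0.28 and the Epb42 probe from -0.50 to -0.07, whereas the Ank1 probe ranged from -1.42 to 0.13. Stage and the sex make-up of the RNAs cannot be told apart in these differences.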

How the results depend on the processing

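The 10 lower probes kept ratios below 0 at both stages under each alternative that gave a value, whereas their calls did not hold throughout. Against 11 probes called at E9.5, 5 were called with the processed signals, 2 with median centring, 7 of 8 genes (not Ank1, at -0.19) with the mean of all probes, and 3 without the dye term. Against 10 at E11.5, the processed signals gave 0, median centring 6 and the fit without the dye term 1. For the difference between the stages, against 4, the counts were 2 with an offset of 10, without a filter, with the brightest probe and with the mean of all probes, 1 with trend and robust moderation, and 0 with the processed signals, with median centring and without the dye term. With the 4 arrays as separate measurements, 4 probes were called over both stages, of 77 among all 24985. Leaving out 1 array gave 1 to 2 calls at E9.5, 0 to 8 at E11.5, 0 over both stages, 0 to 1 for the stage difference and 10 to 13 for the level, in fits that also lack the dye term. Over all probes those fits called 434 to 640 at E9.5 and 21 to 245 at E11.5. Over all probes, 5564 calls at E9.5 and 2118 at E11.5 became 1296 and 0 with the processed signals, 919 and 299 with median centring, and 540 and 50 without the dye term. The causes were not tested.

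Signs turned in some cases. With the processed signals the third Ank1 probe went to -0.90 at E9.5 and its stage difference to 0.13, and Erfe to -1.08 and -0.76. With median centring, E11.5 ratios went to 0.075 for Cish, 0.043 for Tgm2, 0.13 for Stat5b and -0.031 for Car4. With the mean of all probes, Sptb went to -0.0094 at E9.5 and Tgm2 to 0.031 at E11.5. Over the fits that left out 1 array, E9.5 ratios ran from -0.25 to 1.26 for the third Ank1 probe, -0.17 to 0.44 for Erfe, -0.047 to 0.20 for Sptb and -0.51 to 0.11 for Stat5b. E11.5 ratios ran from -0.34 to 0.034 for the third Ank1 probe, -0.12 to 0.035 for Cish and -0.19 to 0.16 for Stat5b. Stage differences ran from -1.42 to 0.096 for the third Ank1 probe, -0.24 to 0.050 for the second and -0.34 to 0.021 for Rhag. The alternatives for the lists and their named genes were chosen after seeing the data. Of 286 list counts under them, 181 stayed within 1.5 times, as did the direction and call of 507 of 774 ratios of named genes. Each ratio pairs the genotypes within an array. No paired analysis was possible between the stages because the labels number no samples. A slide or scan block was not run, since all 4 arrays carry 1 scan time. No scaling moved the median ratio of all probes by over 0.1.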
